A study of Mus musculus with 4 samples.

Results

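Outside every annotated gene, 1059 stretches of the mouse autosomes lay in broad H3K36me3 regions of both strains examined, B6 and KI. They were chosen by the called positions of the regions themselves, and so their overlap between strains, their minimum length and their lack of a gene are not findings. They were found by merging the broad regions of each strain where they overlapped or touched, intersecting the merged sets of the 2 strains, and keeping the autosomal segments of at least 3000 bp that overlapped no gene of any type in the GENCODE vM1 annotation of the mm9 genome. Of 29905 shared segments on 19 autosomes, 19232 reached that length and 1059 of these, or 5.51% (Wilson 95% interval 5.19 to 5.84%), held no gene. The gene-free segments covered 6.448 Mb, which was 1.87% of the 344.3 Mb of shared broad signal. In 404 segments, called near segments here, the nearest 3′ end of an annotated gene was within 10 kb on either side, and in the other 655, called far segments, it was beyond 10 kb.

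H3K36me3 ChIP-seq was carried out by the authors on germ cells of mice at 14 dpp (days post-partum), with inputs that the labels give at 15 dpp. B6 is C57BL/6J. KI, B6.Cg-Prdm9<tm1.1Kpgn>/Kpgn, is a knock-in on the B6 background in which exon 11 of Prdm9, which encodes the zinc fingers, was exchanged for that of CAST/EiJ mice, and all other DNA is shared by both strains. Each strain has 1 list of broad regions and 1 of narrow peaks, called on pooled replicates, so the values below have no replicate error and no test between strains was made. The lists hold positions only, and the read depth behind a region is unknown. Broad regions start and end in steps of 500 bp. Equal edges between strains, segment lengths and distances from an edge are therefore known to no finer step. Intervals of shares below are Wilson 95% intervals, and the interval of a median is an exact binomial 95% interval from the ordered values. All of them cover counting error only.

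H3K36me3 is the trimethylated form of lysine 36 of histone H3. The methyltransferase SETD2 travels with elongating RNA polymerase II and leaves the mark along the bodies of transcribed genes, mostly away from the promoter and toward the 3′ end. In male meiosis PRDM9 also places the mark, together with H3K4me3, on the few nucleosomes around recombination hotspots, whose positions are set by its zinc fingers. Transcription can run on past the annotated 3′ end of a gene, and an annotation can lack a gene or an early exon, so a broad region without a gene does not show by itself what lies there.

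The sequences of 3 segments and of 2 gene starts are shown because they stand for the kinds of place described below. The segments are the longest near segment, the longest far segment and the segment farthest from any gene, each given by the 300 bases at its middle. The starts are those of Topaz1 and Ankrd31, genes that vM1 does not hold and that RefSeq places immediately before the longest near and the longest far segment. Their RefSeq windows of 250 bases before and 50 after the start were found by exact match in mm9. All 5 are on the plus strand of mm9, and capitals mark the CpG dinucleotides.
Longest near segment, chr9:122684601-122684900: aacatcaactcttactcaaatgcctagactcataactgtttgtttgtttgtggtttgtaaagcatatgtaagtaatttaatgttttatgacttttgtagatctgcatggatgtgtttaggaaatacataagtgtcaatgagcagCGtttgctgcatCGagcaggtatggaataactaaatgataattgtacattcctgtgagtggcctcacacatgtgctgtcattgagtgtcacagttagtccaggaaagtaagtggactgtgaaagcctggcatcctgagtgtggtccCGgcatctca
Longest far segment, chr13:97574351-97574650: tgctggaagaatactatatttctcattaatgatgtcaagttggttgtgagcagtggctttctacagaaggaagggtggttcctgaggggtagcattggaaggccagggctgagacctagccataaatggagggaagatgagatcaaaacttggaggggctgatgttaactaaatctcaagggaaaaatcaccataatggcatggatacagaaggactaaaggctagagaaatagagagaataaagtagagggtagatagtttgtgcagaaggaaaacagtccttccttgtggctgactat
Segment farthest from a gene, chr14:108072351-108072650: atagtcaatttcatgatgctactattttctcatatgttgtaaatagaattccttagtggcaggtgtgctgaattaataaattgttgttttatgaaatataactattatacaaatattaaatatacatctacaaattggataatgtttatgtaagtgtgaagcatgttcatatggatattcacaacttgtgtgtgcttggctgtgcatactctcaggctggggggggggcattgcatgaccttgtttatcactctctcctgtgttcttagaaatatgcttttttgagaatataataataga
Topaz1 start, chr9:122656067-122656366: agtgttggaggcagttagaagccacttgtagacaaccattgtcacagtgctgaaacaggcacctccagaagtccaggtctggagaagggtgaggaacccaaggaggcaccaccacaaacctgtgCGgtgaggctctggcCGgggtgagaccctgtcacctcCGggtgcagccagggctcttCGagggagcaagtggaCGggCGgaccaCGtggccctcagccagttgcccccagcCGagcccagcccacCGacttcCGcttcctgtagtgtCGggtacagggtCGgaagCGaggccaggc
Ankrd31 start, chr13:97517998-97518297: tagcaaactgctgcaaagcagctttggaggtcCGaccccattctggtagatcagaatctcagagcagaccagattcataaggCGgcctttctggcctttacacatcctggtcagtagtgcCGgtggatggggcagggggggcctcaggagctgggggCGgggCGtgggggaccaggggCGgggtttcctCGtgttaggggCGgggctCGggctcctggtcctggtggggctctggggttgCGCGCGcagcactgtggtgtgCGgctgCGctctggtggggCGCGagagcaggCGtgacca

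The segment middles held 3, 0 and 0 CpG dinucleotides and had 40%, 43.0% and 32.3% G and C. The starts held 13 and 17 CpG dinucleotides with 63.0% and 65.3% G and C. Over 30742 matched autosomal RefSeq starts the median was 7 CpG dinucleotides in a window of the same length. Both starts were thus CpG-rich and outside the called segments, and the 3 segment middles were CpG-poor.

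The longest near segment, chr9:122656501-122713000, spanned 56.5 kb. Its left edge was called at the same step in both strains. The B6 region ended with it at 56.5 kb and the KI region ran 500 bp further, to 57.0 kb. The RefSeq start of Topaz1, a germ cell gene needed for male meiosis, lay 184 bp before that edge and pointed into the segment. On the other side the segment ended 1657 bp before the 5′ end of D9Ertd402e, a protein-coding gene on the same strand. It counted as near only through the 3′ end of a small 7SK RNA gene 8949 bp away inside D9Ertd402e, and it was not downstream of it. The segment held 1 narrow B6 peak and 4 narrow KI peaks, none of which overlapped between strains.

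The longest far segment, chr13:97518501-97630500, had the same 2 edges in B6 and KI and spanned 112 kb. The nearest annotated gene end, that of the glycosyltransferase gene Gcnt4, was 64.1 kb away. Its left edge was 253 bp past the RefSeq start of Ankrd31, whose protein takes part in forming meiotic DNA double-strand breaks. A second far segment of 50.5 kb, chr13:97635501-97686000, followed after a short gap and ended 8644 bp before Gcnt4. Together they spanned 167.5 kb, of which 97.0% was marked in both strains. Each strain had 1 narrow peak in the 112 kb segment, and these did not overlap.

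**Figure D1:**
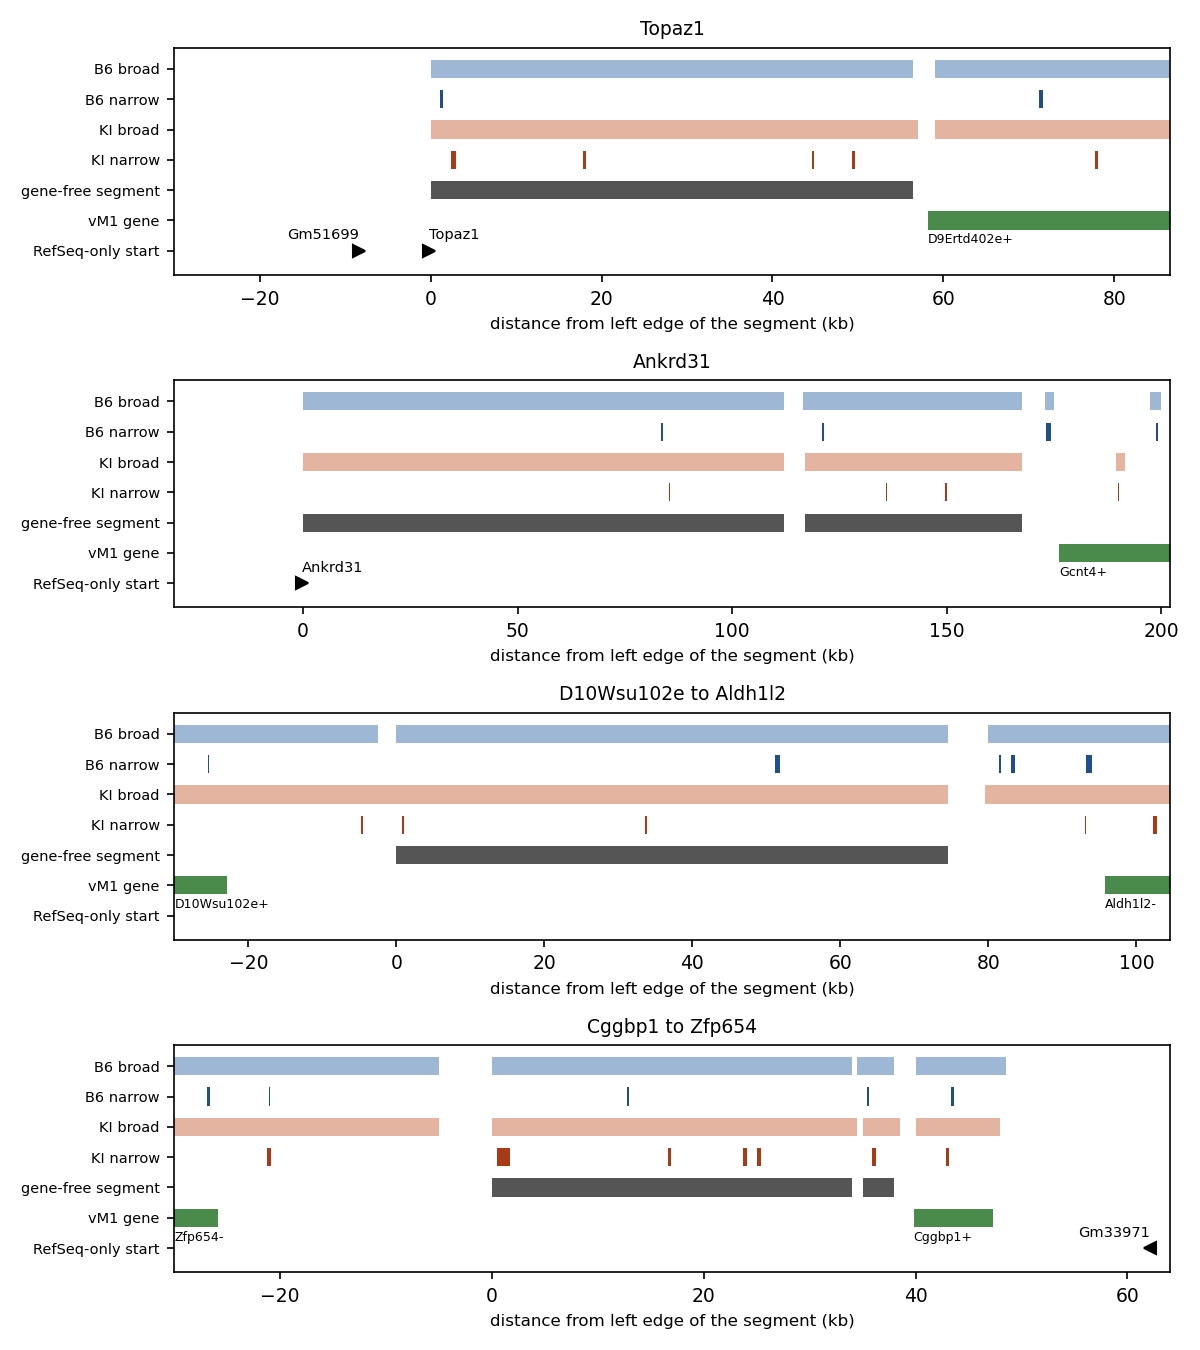
Broad regions and narrow peaks of B6 and KI, gene-free segments, vM1 genes with their strand, and RefSeq starts with no vM1 gene (arrowheads point along transcription) at 4 of the longest segments, by distance in kb from the left edge of the segment. At Topaz1 and Ankrd31 the broad regions of both strains begin just after the start, and at the other 2 places no such start faces the segment.

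Not all long segments began at a RefSeq start. The far segment of 74.5 kb at chr10:82854501-82929000 lay between the 3′ ends of D10Wsu102e and Aldh1l2, a mitochondrial folate enzyme gene, which point toward each other. By gene order, the pseudogene Gm8270 is the only RefSeq gene between them that vM1 lacks. The segment was 21.2 kb from Aldh1l2, 31.7% of whose body was marked in both strains. The B6 region had the segment's own bounds, while the KI region ran to 105 kb and reached into D10Wsu102e. Another B6 region, beyond a short gap, covered the 3′ end of D10Wsu102e, so the strains differed there by a gap in the B6 calls. On the other side, also after a short gap, a further region of each strain reached into Aldh1l2. The ratio of observed to expected CpG was 0.307 in the segment, against a median of 0.155 over far segments. The 34 kb segment chr16:64812001-64846000 lay between the 5′ ends of Cggbp1, which encodes a protein that binds CGG repeats, and the zinc finger gene Zfp654. By gene order RefSeq has no gene between them that vM1 lacks, and no RefSeq-only start faced the segment. The B6 region spanned 34 kb and the KI region 34.5 kb, with 1 narrow peak in B6 and 4 in KI.

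The other far segments among the 6 longest were 33 kb each. At chr17:17374001-17407000 the RefSeq start of the protein-coding gene Gm5165 lay 2134 bp before the edge, and the nearest vM1 gene end was 45.2 kb away. At chr6:90904501-90937500 the segment was 25.6 kb past the 3′ end of Nup210, a nuclear pore gene with 96.3% of its body marked. This segment held 2 narrow peaks in B6 and 7 in KI, and its B6 region of 46.5 kb was wider than its KI region of 33 kb.

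The other near segments among the 6 longest were of several kinds. At chr7:118227501-118265500, B6 and KI had the same bounds over 38 kb, 957 bp from the 5′ end of Eif4g2, a gene for a regulator of translation. The 36.5 kb segment chr13:49859001-49895500 was 4813 bp past the 3′ end of Gm7251, a gene with 0% of its body marked, and the RefSeq start of Gm272 lay inside it. The 27 kb segment chr6:83833001-83860000 was 4347 bp from the 5′ end of Zfml, and the B6 region there was 42.5 kb long and reached into a gene. The 24 kb segment chr9:27142501-27166500 began 153 bp past the 3′ end of Igsf9b, a gene of a synaptic adhesion protein with 73.2% of its body marked. There the B6 region spanned 51 kb and ran from within the gene across the 3′ end, while the KI region of 24 kb stayed outside it. The 21 kb segment chr8:74351001-74372000 was 5071 bp past the 3′ end of the unmarked gene Gm5373, and it held 1 narrow peak in B6 and 7 in KI.

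The 3 segments farthest from any gene were short. The one at chr14:108071001-108074000 was 3 kb long and 705 kb from any annotated gene. In B6 it was part of a 5 kb region without a narrow peak inside the segment, and in KI the region was 3 kb with 1 narrow peak. At chr12:30018501-30022000, 191 kb from Myt1l, a gene of a neuronal transcription factor, the regions were 6 kb in B6 and 3.5 kb in KI. At chr3:48937501-48941000, 179 kb from a U1 small nuclear RNA gene, both regions were 4 kb and a narrow peak of B6 overlapped one of KI.

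Across all gene-free segments the median length was 4500 bp (quartiles 3500 and 6500 bp), with the same median in the near and the far class. Shared segments of at least 3 kb that did overlap a gene had a median of 9000 bp. There were 115 segments of 10 kb or longer, of which 41 were near and 74 far. At the limit itself, 227 segments were exactly 3000 bp long, while 489 gene-free shared segments from 2500 bp to just under 3000 bp were left out, and the gene-free segments of any length numbered 2988. The largest 3′ end distance among near segments was 9993 bp and the smallest among far segments was 10053 bp. The gene-free share of long shared segments ranged from 2.96% on chromosome 4 to 8.81% on chromosome 12. None of the 985 miRNA hairpins of RefSeq that matched mm9 lay in a gene-free segment. Hairpins inside vM1 genes, which include miRNA genes, could not lie in one by construction. No share over gene-free positions is given for hairpins, so this count is not a finding about the segments.

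**Figure D2:**
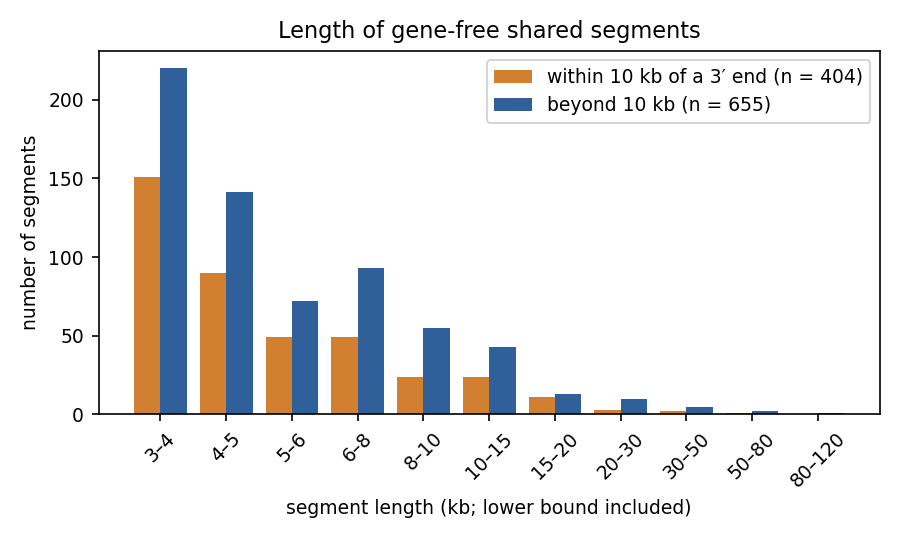
Number of near and far gene-free segments in each length bin, in kb. Most segments are short, with 151 near and 220 far segments of 3 to under 4 kb, and 1 segment, of 112 kb, is in the longest bin.

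Far segments also came in runs. When far segments separated by at most 10 kb were joined, 260 of the 655 fell into 96 runs of at least 2. Some runs lie within a single broad region of one strain that is broken by gaps in the other. How many do was not counted, and runs of other shared segments were not computed, so the number does not show clustering. The widest was the Ankrd31 run. The next, chr1:183511501-183621000 between Ccdc121 and Dnahc14, an axonemal dynein gene, held 13 segments over 109.5 kb, of which 64.4% was marked in both strains, and the RefSeq start of the lncRNA gene Gm33612 lay inside the run. The run of 84 kb at chr7:116761501-116845500 between St5 and D930014E17Rik held 9 segments over 79.2% of its length, and by gene order RefSeq has no gene there that vM1 lacks.

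The question behind the distance to 3′ ends is whether the mark lay where transcription would run on past a gene. By their midpoints, 29.4% of the segments (26.7 to 32.2%) were within 10 kb of a 3′ end, against 17.6% of 13926011 gene-free autosomal positions on a grid of 100 bp. Immediately past genes, however, gene-free segments were scarce. They covered 0.147% of gene-free positions within 2 kb of a 3′ end, 0.532% at 2 to 5 kb, 0.938% at 5 to 10 kb and 0.975% at 10 to 20 kb, and 0.0783% beyond 100 kb. All shared broad regions together, those that enter genes included, covered 20% of the gene-free positions within 2 kb of a 3′ end, 8.17% at 2 to 5 kb and 0.137% beyond 100 kb. A shared region that runs unbroken across a 3′ end overlaps the gene and is not a gene-free segment by construction. Around 5′ ends the segments covered 0.34% of positions within 2 kb, 1.14% at 2 to 5 kb and 1.02% at 5 to 10 kb. A 3′ end was nearer than any 5′ end in 442 of 1059 segments (41.7%, 38.8 to 44.7%). Among the 404 near segments this held for 247 (61.1%, 56.3 to 65.8%). No such share is given for gene-free positions.

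**Figure D3:**
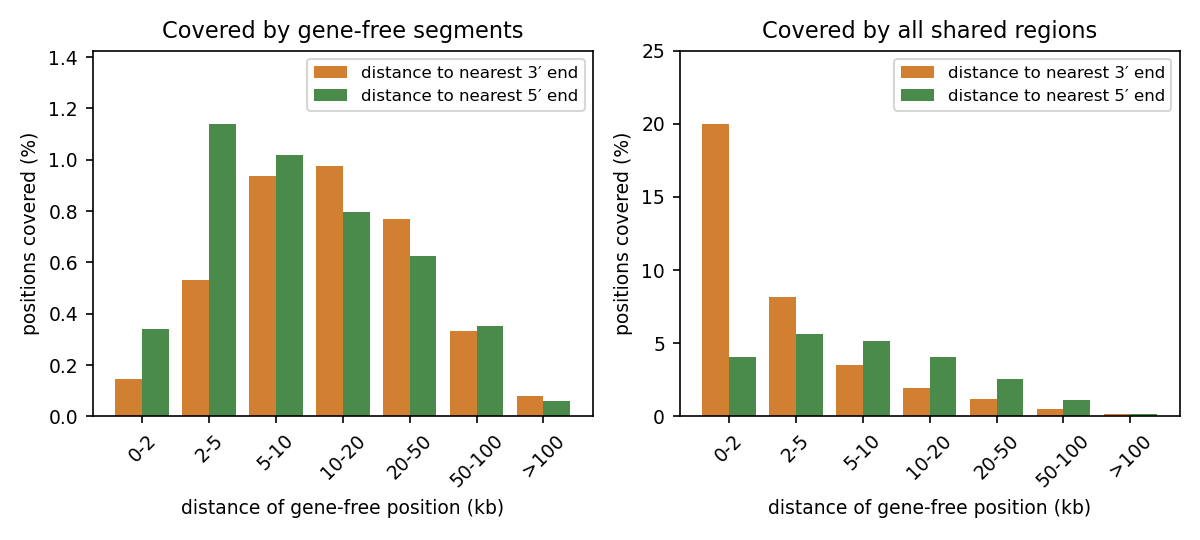
Percent of gene-free autosomal positions covered by gene-free segments (left) and by all shared broad regions (right), by distance in kb to the nearest gene 3′ or 5′ end. Coverage by all shared regions is highest within 2 kb of 3′ ends, at 20%, where gene-free segments cover 0.147%.

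Both sides of a 3′ end count as near, and most gene-free sequence close to one is downstream of it. Of 404 near segments, 303 (75%, 70.6 to 79.0%) were downstream of the nearest 3′ end rather than on the other side of that gene, against 67.1% (66.3 to 67.8%) of 16157 windows of 4500 bp placed likewise outside any broad region. The gene was protein-coding for 272 (67.3%), a pseudogene for 47 (11.6%) and a miRNA gene for 21 (5.20%). Among all 34653 autosomal genes 21418 were protein-coding, and the shares of the other types were not computed. A gene was counted as marked when at least 50% of its body was in broad regions of both strains, which held for 31.8% of 34653 autosomal genes and 39.4% of 21418 protein-coding genes. The nearest 3′ end belonged to a marked gene in 207 of 404 near segments (51.2%, 46.4 to 56.1%). Among the 272 with a protein-coding gene it was marked in 168 (61.8%, 55.9 to 67.3%). For far segments whose nearest 3′ end was that of a protein-coding gene the share was 272 of 462 (58.9%, 54.3 to 63.3%), with an interval that overlapped that of near segments.

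For 228 near segments downstream of a protein-coding gene, the stretch between the 3′ end and the segment had a median length of 4860 bp (quartiles 2917 and 7004 bp). In 82 of these the B6 broad region filled the whole stretch, in 20 the KI region did, and in 126 neither did. Both never did, because the segment would then have joined the gene. In 11 the stretch held no broad region of either strain.

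Near segments were then counted at listed genes. Of all 34653 autosomal genes, 386 (1.11%) were the gene of the nearest 3′ end for a near segment, and of 11016 marked ones 197 (1.79%). The counts in the lists are too small to be read against these shares. Of 32 autosomal meiosis genes, 29 (90.6%, against 39.4% of protein-coding genes) were marked, and 1 had a near segment. This was Sycp1, which encodes the transverse filament of the synaptonemal complex. The 18 kb segment chr3:102601501-102619500 was 2922 bp past its 3′ end. The KI region of 36 kb crossed that stretch and reached into Sycp1, and the B6 region of 51.5 kb ran the other way, to Tshb, a subunit gene of thyroid-stimulating hormone. Of 21 germ cell RNA genes, 19 (90.5%) were marked and 1 had a near segment, of 5 kb, 6541 bp past Ddx4, the gene of the germ cell RNA helicase VASA. Among 217 ribosomal protein genes and their named copies, 96 (44.2%, against 31.8% of genes of any type) were marked and 3 had a near segment. Rpl39l, a ribosomal protein gene copy used in the testis, was among them, with a 7.5 kb segment 6997 bp past its 3′ end, and Rps14 and Rpl9-ps6 had segments on the side away from their 3′ end. Of 70 histone genes 1 (1.43%) was marked and 0 had a near segment.

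The bounds of the broad regions differed between the strains at most segments. The B6 region was wider in 605 of 1059 (57.1%, 54.1 to 60.1%), the KI region in 328 (31%, 28.3 to 33.8%), and both bounds were the same in 71 (6.70%). For near segments the median region was 7250 bp in B6 and 5000 bp in KI, and for far segments 6500 and 5500 bp. The B6 region reached into an annotated gene in 158 segments (14.9%, 12.9 to 17.2%) and the KI region in 47 (4.44%, 3.35 to 5.85%). At near segments these shares were 29.7% (25.5 to 34.3%) in B6 and 8.66% (6.30 to 11.8%) in KI, and at far segments 5.80% and 1.83%. In 202 segments (19.1%) a region of at least 1 strain reached a gene, so the segment was gene-free only as the part marked in both. Before merging, 4805 neighbouring regions of B6 and 5682 of KI touched without overlapping, and the merged autosomal lists held 36897 regions in B6 and 46053 in KI. The paper reports fewer aligned ChIP reads for B6 than for KI. Widths are not given here for the shared segments that overlap a gene, and those reach a gene by construction. The differences of width and reach between strains therefore cannot be read as a trait of gene-free segments. The part of read depth, and of where the caller split a region, in these differences was not tested.

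Marker genes of the cell types of the testis were compared in the same lists. All 10 spermatocyte and germ cell genes were marked in both strains, with 82.4 to 100% of the body covered in each. Of 10 Sertoli and Leydig cell genes, only Star was marked in both, and coverage ranged from 0 to 100% in each strain. In B6 the coverage was 71.7% at Wt1, 45.2% at Sox9, 42.0% at Amh and 29.7% at Clu, and in KI it was 8.49%, 0%, 0.333% and 0%. Gata4 had 19.6% in B6 and 8.25% in KI, and Cyp11a1 0% and 1.51%. Cyp17a1, Hsd3b1 and Insl3 were at 0 in both. Coverage was thus higher in B6 at 5 of these 10 genes and higher in KI at 1. The part of such cells in the wider B6 regions was not tested.

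**Figure D4:**
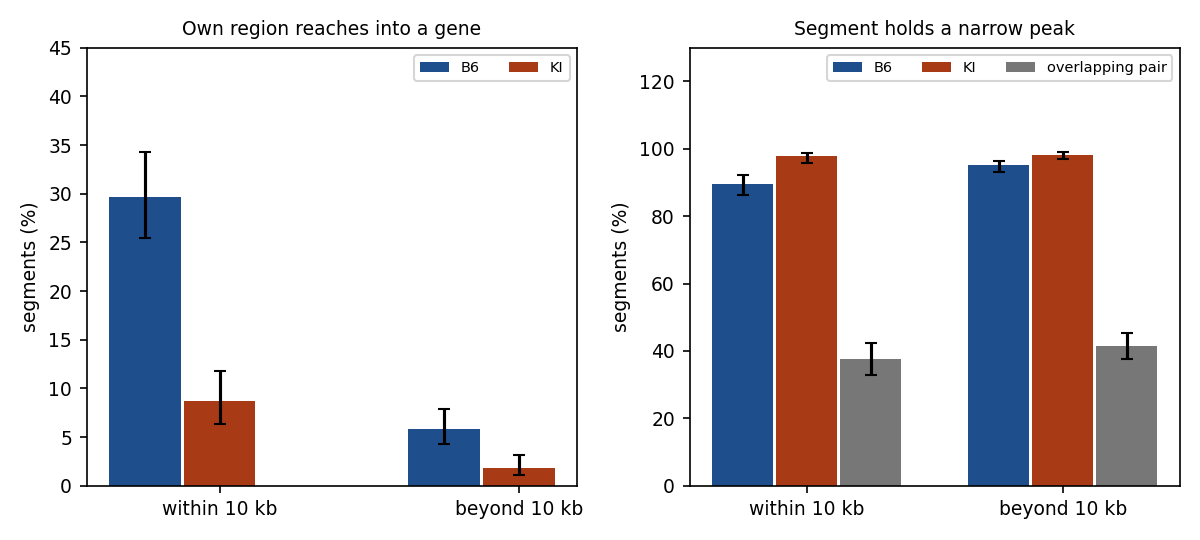
Left, percent of near and far segments whose own B6 or KI broad region reaches into an annotated gene. Right, percent that hold a narrow peak of B6, of KI or an overlapping pair, with Wilson 95% intervals as error bars. At near segments 29.7% of B6 and 8.66% of KI regions reach a gene, while narrow peaks are found in 89.6% or more in each strain and class.

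Narrow peaks within the broad regions are of interest because the caller separates local enrichment from a broad background. Every broad region comes with at least 1 narrow peak in the lists, so their presence in a segment is largely set by how the lists were made, and their position is the measurement. A narrow B6 peak was found in 985 segments (93.0%) and a narrow KI peak in 1039 (98.1%). There were 1337 narrow peaks of B6 (207 per Mb) and 1641 of KI (255 per Mb), with median widths of 324 and 333 bp. In 423 segments (39.9%, 37.0 to 42.9%) a narrow peak of B6 overlapped one of KI. The share of segments with such a pair was 39.5% (35.7 to 43.5%) at 3 to under 5 kb, 39.2% (34.2 to 44.4%) at 5 to under 10 kb and 44.3% (35.6 to 53.5%) at 10 kb or longer. In shared segments that overlap genes it was 36% (34.6 to 37.4%), 33.8% (32.5 to 35.1%) and 25.1% (24.2 to 26.0%). The intervals of gene-free and gene-overlapping segments were apart in the longest class and overlapped in the others. In that class the 8680 segments that overlapped genes covered 267.5 Mb, with 42.9 narrow B6 peaks per Mb, and the 115 gene-free ones covered 2.041 Mb, with 88.7 per Mb. The part of these differences in length and density in the pairs was not tested.

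Genes that RefSeq holds and vM1 lacks were then placed beside the segments. Of 32851 RefSeq start windows, 31872 (97%) matched mm9 exactly once on their own chromosome. Among these, 6709 starts of 5576 genes with no vM1 name or synonym fell in gene-free autosomal sequence. In 257 segments (24.3%, 21.8 to 26.9%) such a start lay inside or within 50 kb upstream along its own transcription, with no vM1 gene between. This held for 18.6% of near and 27.8% of far segments (15.1 to 22.6% and 24.5 to 31.3%). By midpoints, 22.9% of segments (20.4 to 25.5%) lay within 50 kb after such a start, against 12.9% of gene-free positions. For protein-coding genes the values were 6.42% (5.10 to 8.06%) of segments and 0.707% of positions. Within 10 kb after a start of any type they were 11.8% (10 to 13.9%) and 3.81%. The starts that faced segments belonged to 192 genes, so some segments shared a gene, while the intervals treat segments as independent.

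In all, 72 segments faced the start of 47 protein-coding genes that vM1 lacks. Besides Topaz1 and Ankrd31, examples chosen after their values were seen are Cc2d2b, with 3 segments of 62.5 kb in sum, and the zinc finger gene Zfp33b, with 2 segments of 36.5 kb in sum that begin 310 bp past its start. Where the start was within 5 kb, the edge that faced it lay after it in 27 of 34 segments with a protein-coding gene, with a median of 2135 bp, and in 71 of 96 with a lncRNA gene, with a median of 2062 bp. The start was inside the segment in the other 7 and 25. A start outside the segment is counted only if it points toward it, so these counts describe the distance and not a direction. In start windows that faced a segment within 5 kb the median was 6 CpG dinucleotides, against 3 in all 6709 starts of this kind. The sets differ in gene type. Protein-coding genes gave 34 of the 130 facing windows, but only 359 of the 5576 genes behind all starts. A start that faced several segments was counted for each. The part of gene type in the CpG difference was not tested.

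**Figure D5:**
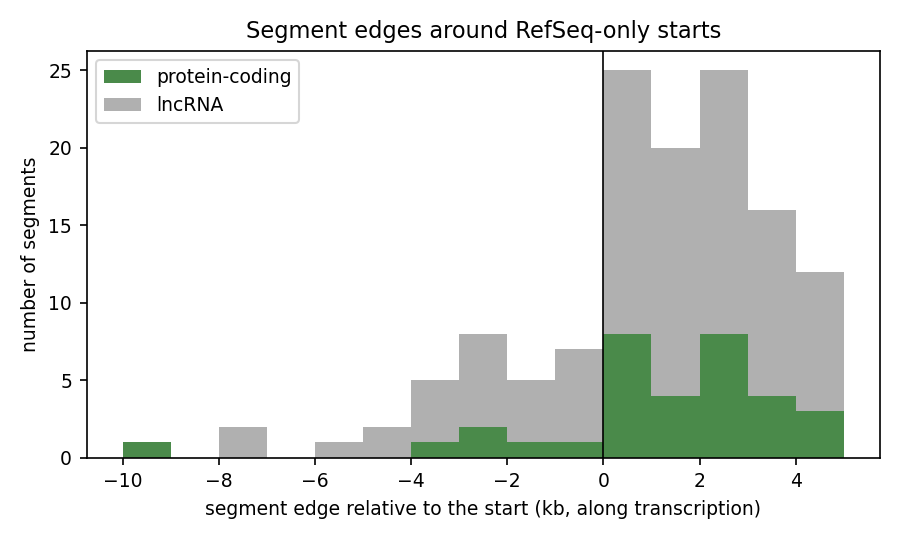
Distance in kb from a RefSeq start without a vM1 gene to the edge of the segment it faces, along transcription, for 129 segments; 1 more lies under -10 kb. Values above 0 mean that the called segment begins after the start, and the bins from 0 to 3 kb hold 25, 20 and 25 segments.

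By gene order alone, which needs no coordinates, 1039 segments could be placed between flanking genes found in both annotations. RefSeq held at least 1 gene that vM1 lacks between the same neighbours for 680 (65.4%, 62.5 to 68.3%), a protein-coding gene for 162 (15.6%) and a lncRNA gene without a protein-coding one for 420 (40.4%). For 359 (34.6%, 31.7 to 37.5%) gene order gave none, but 7 of these did face a RefSeq-only start, which lay inside the segment in 3. Of 250 placed segments that faced such a start, its gene was missing from the interval in 27. The space between neighbours can also be much longer than the segment, so these shares are not counts of genes in the segments. Gene order was not counted for gene-free sequence outside the segments, so the shares cannot be read as a trait of the segments. Starts of genes that vM1 does name, but outside their vM1 bounds, were found in the same way at 55 segments (5.19%), and 760 (71.8%) had a start of neither kind. Starts of such named genes were not counted over gene-free positions, so neither share can be read as a trait of the segments.

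Zinc finger genes, many of which lie in clusters, were counted among the protein-coding genes nearest to the segments. Genes named Zfp with a number were the nearest for 22 near segments (5.45%, 3.62 to 8.11%) and 42 far segments (6.41%, 4.78 to 8.55%), against 1.69% of all autosomal protein-coding genes and 2.99% of marked ones. This name was chosen after the values were seen, and segments of the same cluster share a neighbour.

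In base composition the segments were close to other gene-free sequence. The median share of G and C was 42.7% (quartiles 40.2 and 45%) in near and 41.5% (39.1 and 44.1%) in far segments. In 4500 bp windows of the near and far class outside any broad region it was 42.6% and 40.6%. The observed to expected CpG ratio was 0.161 and 0.155 in the segments, against 0.166 and 0.154 in the windows. The comparison was by these classes only and not by distance within them. The strands differed in 1 respect. Along the direction of the gene, 147 of 228 near segments downstream of a protein-coding gene (64.5%, 58.1 to 70.4%) had more T than A, against 51.0% (49.8 to 52.2%) of 6803 windows placed likewise outside broad regions. For G over C the shares were 48.2% (41.8 to 54.7%) and 48.1% (47.0 to 49.3%), and the intervals overlapped. Along the genes whose RefSeq-only starts they faced, 51.8% (45.7 to 57.8%) of 257 segments had more T than A.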

How the data were processed

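H3K36me3 ChIP-seq lists of B6 and KI germ cells were used as deposited. The authors aligned unique reads to mm9 with BWA (version 1.2.3 in the submitters' processing notes), pooled the replicates of each strain and called regions with ZINBA against the input. Each deposited line holds a chromosome and 2 positions, for a broad region or a narrow peak, and no count or score. Positions were read as counted from 1, ends included.

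Regions of a strain that overlapped or touched were merged, intersected and compared with GENCODE vM1 genes on the NCBIM37 sequence in Python 3.11.15 with numpy 2.4.6, pandas 2.3.3, scipy 1.17.1 and samtools 1.23.1, and drawn with matplotlib 3.10.9. The code was tested on simulated intervals, and the shared segments were checked against bedtools 2.31.1. RefSeq tables (GRCm38.p6) gave start sequences, names and gene order, and none of their coordinates were used.

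No test was made, since each strain has 1 pooled list. The members and gene lists were chosen with earlier results of these data known. Named were the 6 longest near and far segments, the 3 widest runs, the 3 segments farthest from genes and near segments of listed genes. Alternatives changed the minimum length, merging, gene types, the distance limit, the ends used, chromosome X, the coverage of marked genes and run gaps. The RefSeq-only starts, the zinc finger neighbours, the length classes of narrow peaks and the alternative that keeps touching regions apart were chosen after the data were seen.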

Additional observations from a re-analysis of the deposited data

Results flagged for a closer look

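The X chromosome lies outside the autosomal rule, and it too held shared broad segments without a gene. There were 62 among 1047 shared X segments of at least 3 kb (5.92%, Wilson 95% interval 4.65 to 7.52%), beside 5.51% on the autosomes. Of these, 30 were near and 32 far, the median length was 4500 bp and the longest spanned 41.5 kb.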

How the results depend on the processing

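Of 49 recomputed values, 25 stayed within 1.5 times a reported count or within the 95% interval of a reported share or median, and 24 moved beyond that. The number of segments was 2272 with a minimum of 2000 bp, 457 with 5000 bp and 3352 where genes were cut out of shared segments in place of dropping segments with a gene. Cutting out genes also changed the near share from 38.1% to 79.4%, the median length to 4530 bp, just past its interval of 4000 to 4500 bp, the share with a narrow peak in near segments to 35.9% (B6) and 48.4% (KI) and in far segments to 92.9% and 96.8%, and the G and C share of near segments to 43.7%, since it adds the parts of shared regions that run past genes. The near share was 20.7% with a limit of 5 kb, 60.4% with 20 kb, 31.1% for downstream ends only, 27.8% for protein-coding 3′ ends and 47.0% where only protein-coding genes were avoided, which also gave 15.5% of segments with a region that reaches into a gene, against 19.1%. The share of near segments beside a marked gene was 42.9% with the limit of 5 kb and 40.3% with 80% of the gene body required, against 51.2%. Runs numbered 209 with the minimum of 2000 bp and 62 with the limit of 20 kb, against 96. With the minimum of 5000 bp narrow peaks were in 94.5% (B6) and 99.4% (KI) of near and 99.3% (KI) of far segments, and with the limit of 5 kb in 99.1% (KI) of near segments. Keeping touching regions apart gave 1151 segments with a median of 4000 bp, and avoiding only protein-coding genes gave 1390. The strand difference kept its direction in both recomputed values, 64.8% and 63.7%. The soft-masked share was not run because the sequence is all upper case. No paired analysis was possible because the labels carry no replicate numbers and each strain has 1 pooled list, and for the same reason no replicate could be left out. Depth behind a region is unknown, so weak and strong regions cannot be told apart.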
